A study of Mus musculus with 11 samples.

Results

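The 9 genes described here are the aryl hydrocarbon receptor Ahr, its partner Arnt, its repressor Ahrr and 6 of its known target genes, Cyp1a1, Cyp1a2, Cyp1b1, Tiparp, Nqo1 and Aldh3a1. They were taken by symbol from a table of 55291 genes, and all 9 were found. RNA was sequenced from mouse E14 embryonic stem cells in 3 groups. Cells of 2 lines that were targeted separately, coded 10E and 11D, carried SPT16 with a V5 tag and an auxin-inducible degron (AID) at its C-terminus, and received 500 nM indole-3-acetic acid (IAA) for 24 hours (3 libraries, 1 of 10E and 2 of 11D). The same 2 lines received the solvent ethanol (EtOH; 4 libraries, 2 of each line). A line without the tag, whose columns carry the code TIR1, received IAA (3 libraries), and no EtOH library of it was analysed here. SPT16 is a subunit of the histone chaperone FACT, and the degron lets IAA direct the tagged protein to degradation through the plant receptor TIR1. All cells grew without feeders in serum medium with LIF and inhibitors of GSK3 and MEK. The untagged comparison rests on 1 line, so that a difference between tagged and untagged cells cannot be told apart from a difference between lines.

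The aryl hydrocarbon receptor waits in the cytoplasm with HSP90 until a flat aromatic molecule binds it, then enters the nucleus, pairs with ARNT and binds short DNA elements near its targets. The CYP1 enzymes it induces oxidise such molecules, and AHRR and TIPARP dampen the receptor in a feedback loop. Several indoles derived from tryptophan are known ligands of this receptor, and IAA is an indole, so each untagged replicate, which received IAA without a degron, is given on its own. In GENCODE M21 (GRCm38) all 9 genes are annotated as protein-coding. Ahr lies at chr12:35497974-35535038 on the minus strand, Arnt at chr3:95434388-95497240 on the plus strand and Ahrr at chr13:74211118-74292331 on the minus strand. Cyp1a1 lies at chr9:57687928-57703824 on the plus strand, Cyp1a2 at chr9:57676937-57683703 on the minus strand, Cyp1b1 at chr17:79701537-79715061 on the minus strand, Tiparp at chr3:65528410-65555518 on the plus strand, Nqo1 at chr8:107388225-107403206 on the minus strand and Aldh3a1 at chr11:61207537-61218421 on the plus strand.

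The short element that the receptor dimer binds has the core GCGTG. RefSeq promoter windows (build GRCm38.p6) were at hand for 7 of the 9 genes, all but Ahr and Aldh3a1. In the 250 bases before the start, GCGTG on either strand was found in 5 of the 7 (Arnt, Cyp1a1, Cyp1b1, Ahrr and Tiparp) and not in Cyp1a2 or Nqo1. Over all 32851 promoter windows of that length 28.2% hold it. The longer form TNGCGTG, which contains the core, was found in Ahrr alone of the 7, against 4.10% of all windows. The windows of the 3 genes with the highest fold changes among those that hold the core, and of Cyp1a2, which shares a locus with Cyp1a1, are printed 5′ to 3′ on the gene's strand, with the core (or its reverse complement CACGC) in capitals. They lie at chr9:57697363-57697612 on the plus strand for Cyp1a1, chr17:79715062-79715311 on the minus strand for Cyp1b1, chr13:74292332-74292581 on the minus strand for Ahrr and chr9:57683656-57683905 on the minus strand for Cyp1a2.
Cyp1a1: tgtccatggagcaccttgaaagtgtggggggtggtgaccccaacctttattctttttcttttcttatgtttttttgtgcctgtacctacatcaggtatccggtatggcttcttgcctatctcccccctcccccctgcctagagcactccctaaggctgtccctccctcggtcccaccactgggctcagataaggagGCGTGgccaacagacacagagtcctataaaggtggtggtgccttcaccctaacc
Cyp1b1: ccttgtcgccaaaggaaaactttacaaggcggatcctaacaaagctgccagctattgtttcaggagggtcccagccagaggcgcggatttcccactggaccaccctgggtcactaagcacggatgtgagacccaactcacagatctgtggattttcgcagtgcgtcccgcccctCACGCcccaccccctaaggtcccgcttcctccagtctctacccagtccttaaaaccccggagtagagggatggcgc
Ahrr: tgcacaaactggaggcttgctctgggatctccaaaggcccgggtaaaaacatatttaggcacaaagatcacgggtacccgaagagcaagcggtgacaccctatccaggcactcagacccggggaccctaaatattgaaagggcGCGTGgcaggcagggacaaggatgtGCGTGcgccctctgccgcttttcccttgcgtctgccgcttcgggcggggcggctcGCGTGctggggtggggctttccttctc
Cyp1a2: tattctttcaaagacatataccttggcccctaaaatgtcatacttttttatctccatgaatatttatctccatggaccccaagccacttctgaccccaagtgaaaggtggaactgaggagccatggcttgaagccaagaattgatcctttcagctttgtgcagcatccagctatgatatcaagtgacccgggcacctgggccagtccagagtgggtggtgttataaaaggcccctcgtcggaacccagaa
The first base of the core lies 54 bases before the start in Cyp1a1 and 76 bases before it in Cyp1b1, where it reads on the opposite strand. Ahrr has 3 copies, beginning 107, 82 and 27 bases before the start. A match of letters is a description of the window and not a measurement of binding.

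Libraries held 3100127 to 13510163 counts, and levels are given as normalised read counts (CPM, scaled by library total and TMM factor), so that 1 count was worth 0.0647 to 0.311 CPM. Levels between genes are set side by side only as RPKM, CPM per kilobase of annotated exon. All 8 pluripotency markers checked (Pou5f1, Sox2, Nanog, Zfp42, Esrrb, Dppa5a, Tdgf1 and Utf1) were present. Their summed level was 1780 to 1976 CPM in the tagged IAA libraries, against 4383 to 5518 CPM in tagged EtOH and 4770 to 4950 CPM in untagged IAA libraries. Supt16 RNA, which says nothing on the amount of protein, stood at 253 to 286 CPM in tagged IAA, 364 to 416 CPM in tagged EtOH and 538 to 577 CPM in untagged IAA libraries. The comparison of tagged IAA with tagged EtOH called 29.3% of 17904 genes higher and 28.1% lower (edgeR quasi-likelihood test, Benjamini-Hochberg false discovery rate, FDR, under 0.05), which is the background for each count of members. With library totals in place of TMM, the median log2 fold change of all genes moved to 0.36, against 0.03, and 73.0% of the calls were higher, against 51.0%. In all of these comparisons a change in the number of cells of a type and a change in RNA per cell cannot be told apart.

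Cyp1a1, Cyp1b1, Ahrr and, at a low level, Cyp1a2 were higher in every tagged IAA library than in any tagged EtOH library, most of which held few counts of them. Against tagged EtOH, 6 of the 9 genes rose (Cyp1b1, Cyp1a1, Cyp1a2, Ahrr, Nqo1 and Tiparp), Arnt fell, and Ahr and Aldh3a1 did not pass. The compound IAA and the degradation of the tagged protein come together in this contrast, and the part of each was not tested. The groups did not overlap in CPM in 5 of the genes that rose (background 27.7%) and in Arnt (background 24.8%). The median log2 fold change of the 9 genes was 0.71, beside 0.03 over all genes tested. All 9 passed the filter on low counts. Cyp1a2 and Cyp1b1, with 5 and 14 counts in the 4 tagged EtOH libraries together, passed it only through the tagged IAA libraries. A rise of Cyp1a2 and Cyp1b1 was thus favoured by their being tested at all.

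Cyp1b1, a monooxygenase of polycyclic aromatics and oestradiol, showed the highest fold change of the 9. Its counts in the tagged IAA libraries were 368 in 10E and 223 and 1219 in 11D (80.7, 63.6 and 78.8 CPM). Tagged EtOH libraries held 5 and 0 counts in 10E and 0 and 9 in 11D, or 0 to 0.807 CPM. The 0 in 11D replicate 1, the shallowest of these libraries, allows a level of up to 0.934 CPM (3 counts). The tagged IAA libraries lay close together and far above every EtOH library. The log2 fold change was 7.38 ± 0.32 (SE; edgeR quasi-likelihood test, FDR 2.5e-10), and it was 8.30 without 11D EtOH replicate 2. Pooled counts were 1810 in tagged IAA and 14 in tagged EtOH, a ratio per library total of 219 (exact 95% interval 130 to 402, counting error only).

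Cyp1a1, the most inducible of the receptor's classical target genes, had 540 counts in the 10E and 490 and 2671 in the 11D tagged IAA libraries, which is 118, 140 and 173 CPM. Tagged EtOH libraries held 13 and 6 counts in 10E (1.70 and 0.593 CPM) and 3 and 100 in 11D (0.934 and 8.96 CPM). Thus 1 EtOH library, 11D replicate 2, stood apart from the other 3, though it remained far below each IAA library. The log2 fold change was 5.25 ± 0.35 (FDR 9.4e-09, edgeR). It was 6.89 without 11D EtOH replicate 2 and 4.61 without 10E IAA replicate 1, the library behind the whole 10E side.

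Cyp1a2, the enzyme best known from liver, lies head to head with Cyp1a1 on chromosome 9, 4.22 kb away by the GENCODE limits, in which Cyp1a1 begins upstream of its RefSeq start. It remained scarce, with 12, 15 and 34 counts in the tagged IAA libraries (2.63, 4.28 and 2.20 CPM) and 0 to 3 counts in each tagged EtOH library (0 to 0.311 CPM). The groups did not overlap, and the log2 fold change was 3.93 ± 0.62 (edgeR FDR 6.1e-05), or 3.31 without 10E IAA replicate 1. The Cyp1a1 and Cyp1a2 transcripts share a run of 137 identical bases, and 4.97% of the 50-base stretches of Cyp1a2 occur in Cyp1a1. There were 1.27 to 3.06 Cyp1a2 counts per 100 Cyp1a1 counts in tagged IAA. How reads that fit both genes were counted is not stated in the labels, so the Cyp1a2 values are uncertain. Cyp1a1 and Cyp1b1 share no 50-base stretch.

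Ahrr, which competes with the receptor for ARNT and for its DNA elements, had 16.4 CPM in the 10E and 12.5 and 14.8 CPM in the 11D tagged IAA libraries. Tagged EtOH libraries gave 1.18 and 0.593 CPM in 10E and 0.311 and 1.79 CPM in 11D, all far below. Its log2 fold change was 3.70 ± 0.31 (edgeR FDR 9.2e-08), and 4.42 without 11D EtOH replicate 2.

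**Figure D1:**
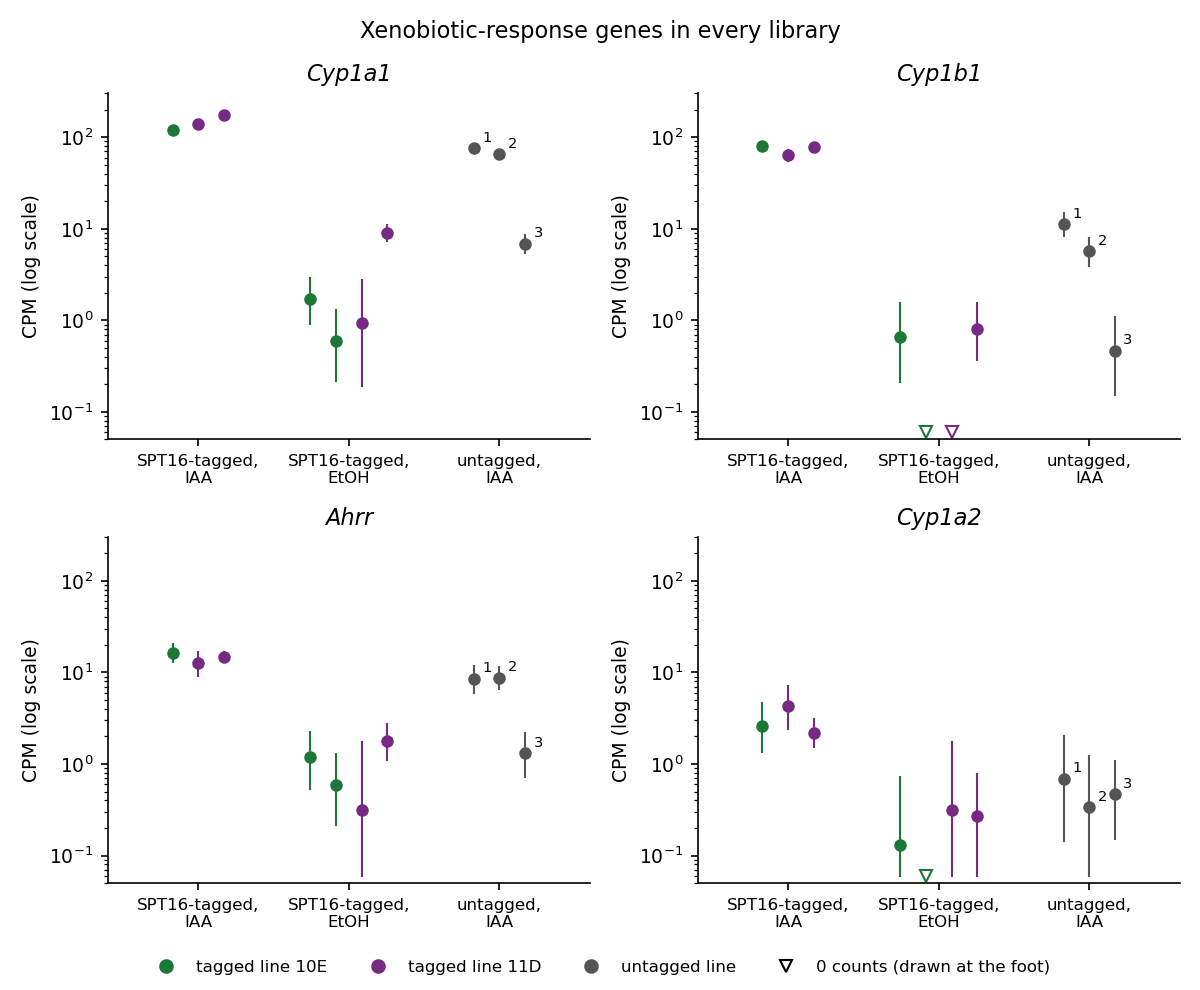
CPM on a log axis of Cyp1a1, Cyp1b1, Ahrr and Cyp1a2 in each library of the tagged IAA, tagged EtOH and untagged IAA groups, with exact 95% counting intervals (cut off at the foot of the axis) and the replicate number beside untagged points. Cyp1a1 lay at 118 CPM or more in the tagged IAA libraries and at 8.96 CPM or less in tagged EtOH, while untagged replicates 1 and 2 stood at 75.7 and 65.0 CPM and replicate 3 at 6.89 CPM.

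Arnt, the partner that the receptor shares with the hypoxia factors, fell while 5 of the 6 target genes and Ahrr rose. Tagged IAA libraries held 94.97 CPM in 10E and 104 and 107 CPM in 11D, against 207 and 197 CPM (10E) and 169 and 214 CPM (11D) in tagged EtOH. No library of one group reached the other group's range. The log2 fold change was -0.96 ± 0.10 (edgeR quasi-likelihood test, FDR 1.3e-06), and -0.63 with library totals in place of TMM. Ahr itself was expressed in all libraries. It had 24.3 CPM in the 10E and 23.9 and 28.6 CPM in the 11D tagged IAA libraries, against 16.6 and 16.9 CPM in 10E EtOH and 26.8 and 31.2 CPM in 11D EtOH. The IAA libraries lay within the range of the EtOH libraries, in which the lines stood apart, and the log2 fold change was 0.11 ± 0.16 (FDR 0.56). With library totals in place of TMM it was 0.44 (FDR 0.031), so the result for Ahr depends on the scaling. Its exons overlap those of another gene, as those of Tiparp do, and whether the counting used strand is not stated in the labels.

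The counts of Arnt per count of Ahr, a ratio within a library that no scaling can move, were 3.90 in 10E and 4.33 and 3.75 in 11D tagged IAA libraries. They were 12.4 and 11.7 in 10E EtOH and 6.30 and 6.86 in 11D EtOH, and 7.51, 8.38 and 9.54 in the untagged IAA libraries. The tagged IAA range lay below both others. The geometric means were 3.99 in tagged IAA against 8.90 in tagged EtOH (exact two-sided permutation test, p = 0.0571, the smallest that 3 against 4 libraries can give) and against 8.44 in untagged IAA (exact permutation p = 0.1, the smallest for 3 against 3). Adjusted over the 6 ratios tested both became 0.15, so neither passed.

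Tiparp, a mono-ADP-ribosyltransferase that modifies the receptor, rose less. Tagged IAA libraries had 68.2 CPM (10E), 74.1 and 77.3 CPM (11D), against 35.1 and 46.0 CPM (10E) and 53.2 and 69.5 CPM (11D) in tagged EtOH. The highest EtOH library overlapped the lowest IAA library. Its log2 fold change of 0.46 ± 0.13 (edgeR FDR 0.0072) was 0.29 (FDR 0.16) without 10E IAA replicate 1, and 0.28 ± 0.16 (FDR 0.16) within line 11D, so this call rests on 1 library. Nqo1, a quinone reductase controlled by both the receptor and NRF2, was at 70.8 CPM in 10E and 77.2 and 87.4 CPM in 11D tagged IAA libraries. In tagged EtOH it was at 42.2 and 49.0 CPM (10E) and 39.8 and 55.5 CPM (11D), below every IAA library. Its log2 fold change was 0.71 ± 0.12 (edgeR FDR 0.00014). Aldh3a1, an aldehyde dehydrogenase of cornea and of drug-exposed liver, was near the detection limit. Its counts were 8 in the 10E and 1 and 9 in the 11D tagged IAA libraries (1.75, 0.285 and 0.582 CPM), against 19 and 27 (10E) and 3 and 16 (11D) in tagged EtOH (0.934 to 2.67 CPM). Those groups overlapped, and the log2 fold change of -0.95 ± 0.44 did not pass (FDR 0.075).

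**Figure D2:**
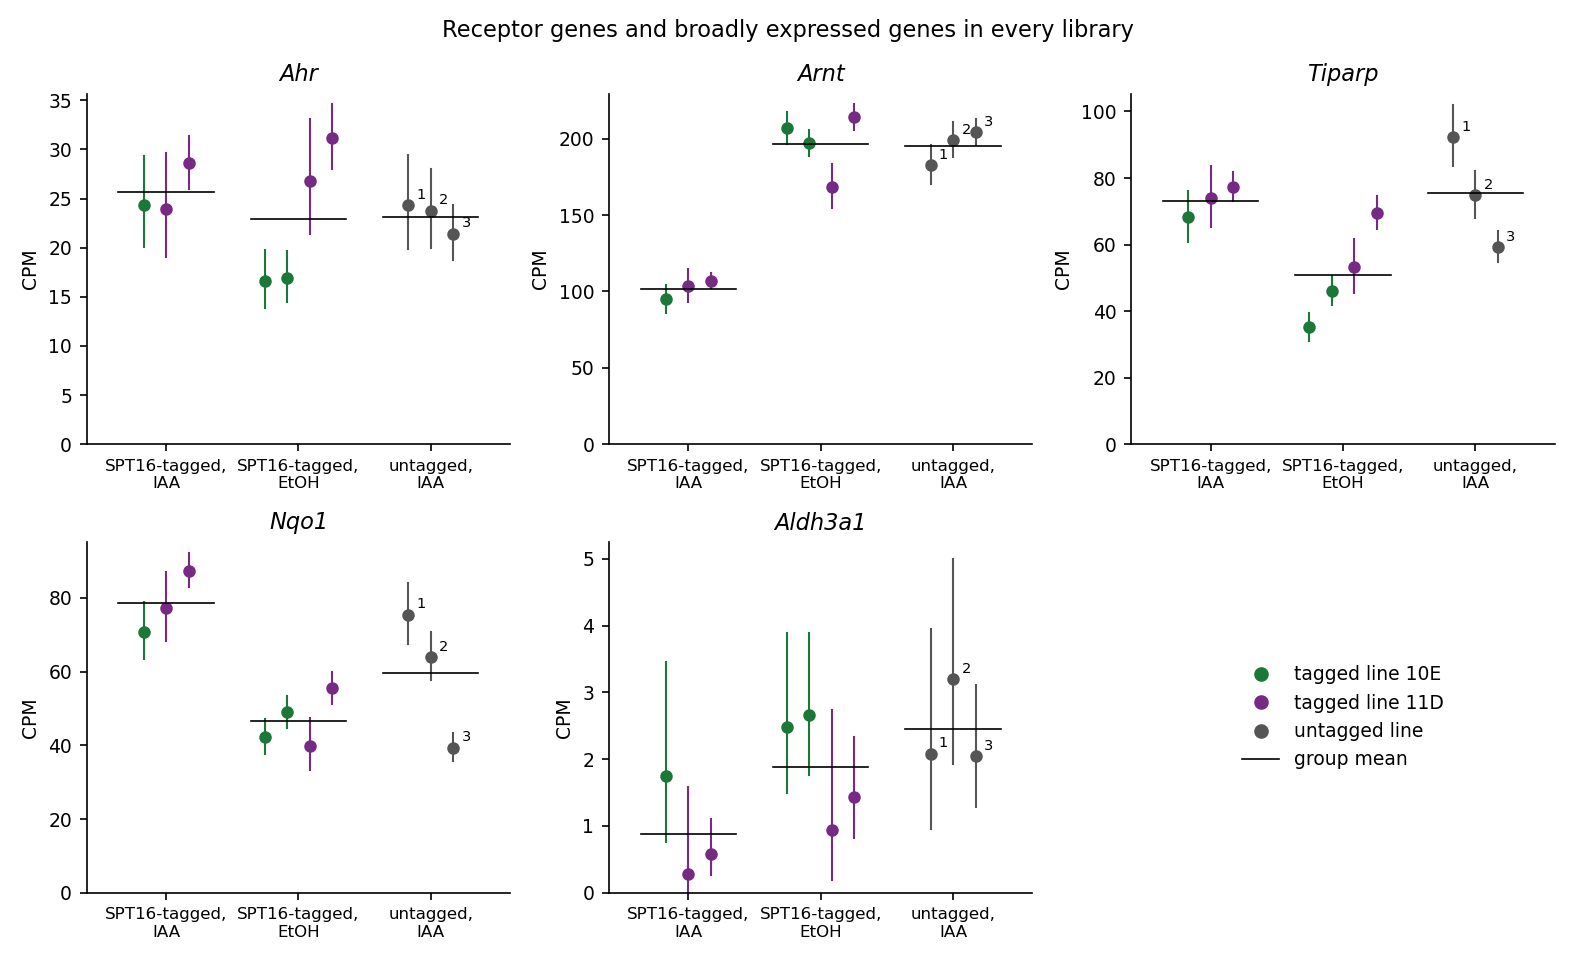
CPM of Ahr, Arnt, Tiparp, Nqo1 and Aldh3a1 in each library of the tagged IAA, tagged EtOH and untagged IAA groups, with exact 95% counting intervals and a line at the group mean. Arnt lay at 94.97 to 107 CPM in tagged IAA libraries and at 169 CPM or more in all others, and Ahr overlapped between all groups.

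Per kilobase, the order of the genes differed between the groups. In tagged IAA cells Cyp1a1 (51.5 ± 9.8 RPKM, SD, n = 3) and Nqo1 (50.5 ± 5.4) were the highest and did not differ beyond their spread. Below them came Tiparp (16.8 ± 1.1), then Cyp1b1 (12.7 ± 1.6) and Arnt (12.7 ± 0.8), which did not differ from each other beyond their spread, and then Ahr (4.16 ± 0.42). Ahrr (1.55 ± 0.21), Cyp1a2 (1.51 ± 0.54) and Aldh3a1 (0.450 ± 0.400) closed the order, the first 2 not separable. In tagged EtOH cells Nqo1 (30.0 ± 4.6 RPKM, SD, n = 4) and Arnt (24.6 ± 2.5) led with overlapping ranges, followed by Tiparp (11.7 ± 3.3) and Ahr (3.71 ± 1.18). The range of Cyp1a1 (1.09 ± 1.42) overlapped those of Ahr and of Aldh3a1 (0.969 ± 0.429), and Ahrr, Cyp1a2 and Cyp1b1 averaged 0.103, 0.0883 and 0.0626 RPKM, again not separable. In untagged IAA cells the order was Nqo1 (38.4 ± 11.8 RPKM, SD, n = 3), Arnt (24.4 ± 1.4), Cyp1a1 (17.7 ± 13.3), Tiparp (17.3 ± 3.8), Ahr (3.76 ± 0.25), Aldh3a1 (1.26 ± 0.34), Cyp1b1 (1.00 ± 0.93), Ahrr (0.658 ± 0.450) and Cyp1a2 (0.248 ± 0.090). There the ranges of neighbours in the order overlapped, except between Tiparp and Ahr and between Ahr and Aldh3a1.

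Within the untagged IAA group Cyp1a1, Ahrr and Cyp1b1 differed between replicates beyond counting error. Cyp1a1 stood at 75.7 CPM in replicate 1 (327 counts), 65.0 CPM in replicate 2 (386 counts) and 6.89 CPM in replicate 3 (74 counts). Ahrr was lowest in the same library, with 8.56, 8.76 and 1.30 CPM in replicates 1, 2 and 3. Cyp1b1 had 11.3, 5.73 and 0.466 CPM in them (49, 34 and 5 counts). Replicate 3 thus lay within the range of the tagged EtOH libraries in all 3 genes, and its exact 95% counting intervals did not reach those of the other replicates. For Cyp1a1 and Ahrr it lay within that range only through 11D EtOH replicate 2 (8.96 and 1.79 CPM). The other tagged EtOH libraries reached at most 1.70 and 1.18 CPM. Nqo1, at 75.4, 63.9 and 39.4 CPM, and Tiparp, at 92.3, 74.8 and 59.3 CPM, were also lowest in replicate 3. Cyp1a2 had 3, 2 and 5 counts and showed no such gap at this depth. Ahr, at 24.3, 23.8 and 21.4 CPM, Arnt, at 183, 199 and 204 CPM, and Aldh3a1, at 2.08, 3.20 and 2.05 CPM, showed none either. A stepwise fall like that of Nqo1 and Tiparp was not particular to the members. The summed level of 1803 chemosensory receptor genes was 118, 81.1 and 74.5 CPM in replicates 1, 2 and 3, and mitochondrial genes took 2.73, 2.53 and 2.28% of counts. Other genes rose instead, such as Parp1 at 638, 699 and 784 CPM.

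Over the whole table the Spearman correlation of replicate 3 across 17439 genes was 0.985 with replicate 1 and 0.990 with replicate 2, against 0.985 between those 2, and replicate 3 had the most counts of the 3. Of 13145 genes with a mean of at least 2 CPM in the untagged group, 5 were at least 4-fold lower in replicate 3 than in both others, and Cyp1a1, Cyp1b1 and Ahrr were 3 of these 5. The other two were Ly6a, a surface antigen gene, and an uncharacterised Riken transcript. For other libraries, set against the rest of their own group, 2 to 23 genes were at least 4-fold lower, and no member was among them. In the other direction 0 to 5 genes per library were at least 4-fold higher, and Cyp1a1 alone of the members was among them. Cyp1a1 was 1 of 2 genes, of 13137, that were at least 4-fold higher in 11D EtOH replicate 2 than in each other tagged EtOH library. These counts describe single libraries, the threshold was chosen with the values known, and no test was made. What differed between these libraries is not given in the labels.

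Against the untagged IAA cells, 4 of the 9 genes were higher in tagged IAA cells (Cyp1b1, Cyp1a2, Cyp1a1 and Ahrr) and 2 were lower (Arnt and Aldh3a1), where 27.9% and 27.8% of 17439 genes tested were higher and lower. This comparison and the one above share the tagged IAA libraries. Cyp1b1 had a mean of 74.4 ± 9.4 CPM in tagged IAA and 5.85 ± 5.44 CPM in untagged IAA cells (SD, n = 3 each), a log2 fold change of 3.98 ± 0.52 (SE; edgeR quasi-likelihood test, FDR 1.2e-05). Without untagged replicate 3 it was 3.20 (FDR 2.1e-06), and without untagged replicate 1 it was 4.89, so the gene was higher in tagged cells whichever of these was left out. Cyp1a1 averaged 144 ± 27 CPM in tagged IAA and 49.2 ± 37.0 CPM in untagged IAA (log2 fold change 1.53 ± 0.53, edgeR FDR 0.022). Ahrr averaged 14.6 ± 2.0 CPM in tagged IAA and 6.21 ± 4.25 CPM in untagged IAA (1.42 ± 0.46, FDR 0.016). For both genes every tagged library lay above every untagged one, and without untagged replicate 3 the log2 fold changes were 0.96 (FDR 0.010) for Cyp1a1 and 0.81 (FDR 0.031) for Ahrr. Neither call held in DESeq2 (FDR 0.28 and 0.22) or without 11D IAA replicate 2 (edgeR FDR 0.059 and 0.055).

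Cyp1a2 averaged 3.04 ± 1.10 CPM in tagged IAA and 0.499 ± 0.181 CPM in untagged IAA cells (log2 fold change 2.49 ± 0.56, edgeR FDR 0.0014). It passed the filter on low counts here only through the tagged IAA libraries, so a higher level there was favoured by its being tested at all. Its pooled counts were 61 in tagged IAA and 10 in untagged IAA. Arnt averaged 102 ± 6 CPM in tagged IAA and 195 ± 11 CPM in untagged IAA cells (-0.97 ± 0.11, FDR 2.2e-06). Its 3 untagged libraries lay among the tagged EtOH libraries. Aldh3a1 averaged 0.874 ± 0.777 CPM in tagged IAA and 2.44 ± 0.66 CPM in untagged IAA (-1.33 ± 0.42, edgeR FDR 0.014). That call was lost in DESeq2 (FDR 0.11), with library totals (FDR 0.051) and without untagged replicate 2 (FDR 0.066), and the value was -2.17 without 10E IAA replicate 1. Tiparp (-0.06 ± 0.16, FDR 0.78), Ahr (0.14 ± 0.15, FDR 0.41) and Nqo1 (0.38 ± 0.19, FDR 0.10) did not pass. Nqo1 passed without 10E IAA replicate 1 (0.52, FDR 0.048), without untagged replicate 1 (0.57, FDR 0.020), with no filter on low counts (0.35, FDR 0.037) and with library totals (0.68, FDR 0.0050), and Ahr passed with library totals (0.44, FDR 0.023), a scaling under which 69.7% of all calls were higher, against 50.1% with TMM.

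**Figure D3:**
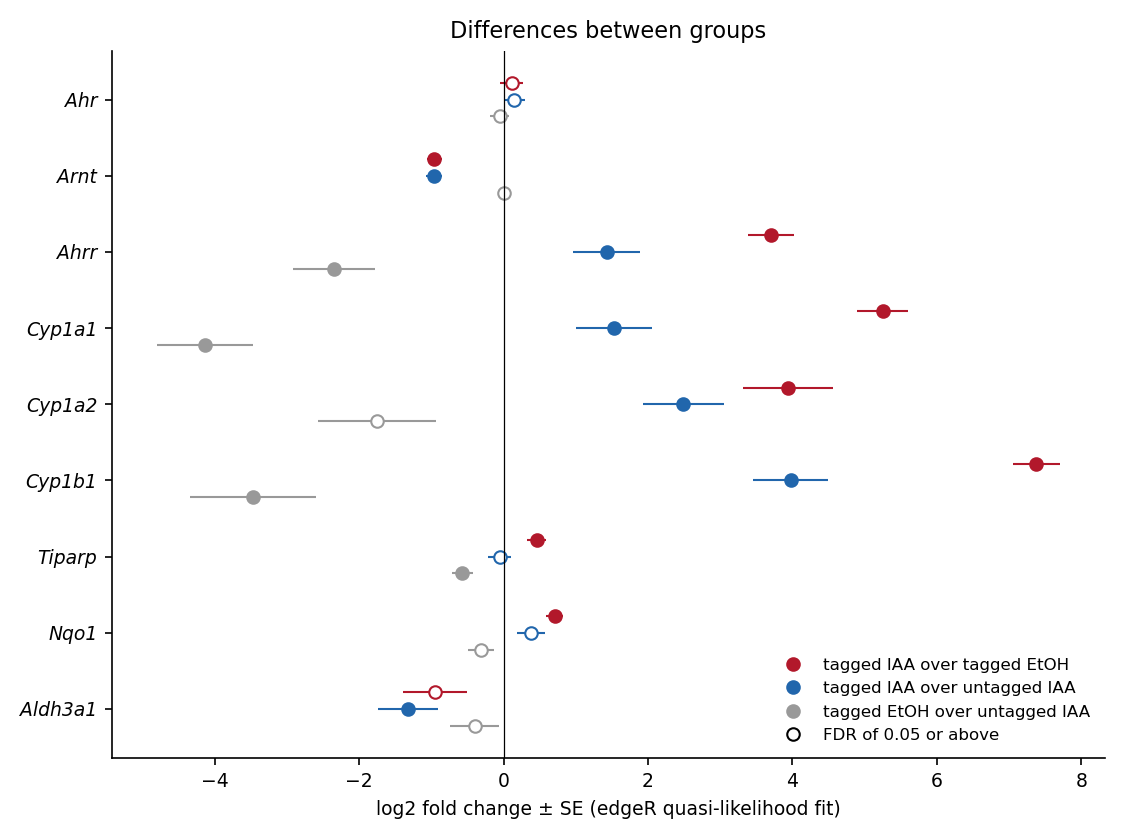
Log2 fold change with its SE for each gene in 3 comparisons, tagged IAA over tagged EtOH, tagged IAA over untagged IAA and tagged EtOH over untagged IAA, which share libraries; filled points have an FDR under 0.05. Cyp1b1 was the highest in the first (7.38) and second (3.98), and Arnt was at -0.96 and -0.97 in these and at 0.01 in the last.

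The tagged EtOH cells, which received no IAA, were compared with the untagged IAA cells, a contrast in which the tag and the compound differ together. In edgeR 0 of the 9 genes were higher in tagged EtOH (DESeq2 likewise called 0, and 0 had an unadjusted p under 0.05), and 4 were lower (3 by DESeq2, which did not call Cyp1b1, FDR 0.066), where 1.27% and 2.29% of 17439 genes were higher and lower. Cyp1a1 averaged 3.05 ± 3.97 CPM in tagged EtOH (SD, n = 4) and 49.2 ± 37.0 CPM in untagged IAA (n = 3), a log2 fold change of -4.14 ± 0.66 (edgeR FDR 0.0069). It passed with each library left out in turn (FDR 2.6e-06 to 0.035), and was -5.52 without 11D EtOH replicate 2. Cyp1b1 averaged 0.365 ± 0.426 CPM in tagged EtOH and 5.85 ± 5.44 CPM in untagged IAA (-3.47 ± 0.88, FDR 0.043), and Ahrr 0.969 ± 0.657 CPM in tagged EtOH and 6.21 ± 4.25 CPM in untagged IAA (-2.35 ± 0.56, FDR 0.035). Tiparp averaged 51.0 ± 14.4 CPM in tagged EtOH and 75.5 ± 16.5 CPM in untagged IAA (-0.57 ± 0.14, FDR 0.043).

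The calls of Cyp1b1, Ahrr and Tiparp each rest on single libraries. Leaving out single libraries gave Cyp1b1 values of -6.04 to -2.55 (FDR 0.00048 to 0.23), Ahrr values of -3.39 to -1.88 (FDR 0.00040 to 0.18) and Tiparp values of -0.73 to -0.41 (FDR 0.015 to 0.23). The highest FDR came without untagged replicate 1 for each of the 3 genes, and the lowest without untagged replicate 3. Cyp1b1 lost its call without untagged replicate 1 or 2, without 10E EtOH replicate 1 or 2, without 11D EtOH replicate 1 and without either 11D IAA library. Ahrr lost it without the same libraries except 11D IAA replicate 1, and Tiparp without the same except 10E EtOH replicate 2. Without untagged replicate 3, the library with the lowest levels, Cyp1a1 (-4.72), Cyp1b1 (-4.25), Ahrr (-2.97), Tiparp (-0.73) and Nqo1 (-0.56, FDR 0.041) were all lower in tagged EtOH. The share of calls that were higher was 25.2% with library totals, against 35.7% with TMM.

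The proportions of the CYP1 genes and Ahrr were compared within libraries, in 4 of the 6 ratios tested, none of which passed after adjustment. Cyp1b1 counts per 100 Cyp1a1 counts were 68.1 in 10E and 45.5 and 45.6 in 11D tagged IAA libraries, against 15.0, 8.81 and 6.76 in untagged replicates 1, 2 and 3. The groups did not overlap, and untagged replicates 1 and 2, where Cyp1a1 was abundant, had the low ratio too. Geometric mean ratios were 0.521 in tagged IAA and 0.0963 in untagged IAA (exact two-sided permutation p = 0.1, the smallest that 3 against 3 can give; 0.15 adjusted over 6 ratios). In tagged EtOH only 11D replicate 2 had more than 13 Cyp1a1 counts, and there the value was 9 (9 counts of Cyp1b1, 100 of Cyp1a1). Ahrr per count of Cyp1a1 had geometric means of 0.102 in tagged IAA and 0.142 in untagged IAA (exact permutation p = 0.3, adjusted 0.36), and 0.464 in tagged EtOH, where the Cyp1a1 counts were low (exact permutation p = 0.0571 against tagged IAA, the smallest that 3 against 4 can give; adjusted 0.15). Cyp1a2 per count of Cyp1a1 had geometric means of 0.0205 in tagged IAA and 0.0148 in untagged IAA (exact permutation p = 0.7, adjusted 0.7).

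**Figure D4:**
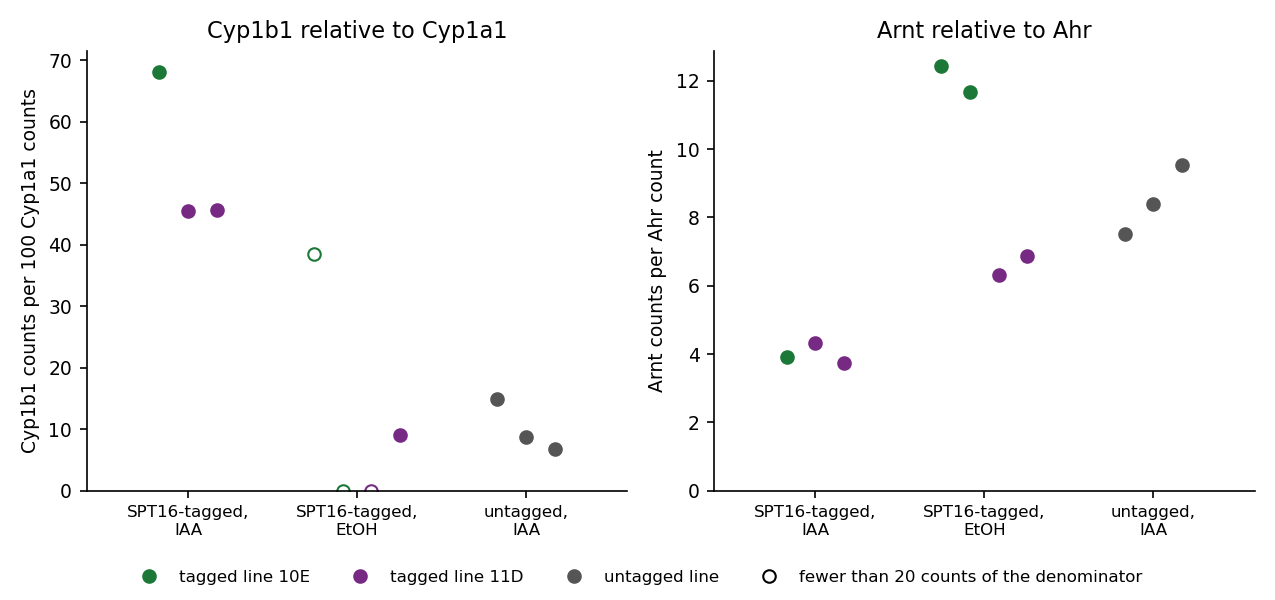
Left, Cyp1b1 counts per 100 Cyp1a1 counts; right, Arnt counts per count of Ahr, each in every library of the tagged IAA, tagged EtOH and untagged IAA groups, with open points where the denominator has fewer than 20 counts. Tagged IAA libraries had the highest Cyp1b1 ratios (45.5 to 68.1) and the lowest Arnt ratios (3.75 to 4.33).

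In both tagged lines Cyp1b1, Cyp1a1, Cyp1a2, Ahrr and Nqo1 rose and Arnt fell. Line 10E, with 1 IAA library that is assumed to vary like the others, gave log2 fold changes of 8.06 ± 0.49 for Cyp1b1, 6.74 ± 0.51 for Cyp1a1, 5.18 ± 1.10 for Cyp1a2 and 4.23 ± 0.47 for Ahrr. Line 11D gave 6.83 ± 0.44 for Cyp1b1, 4.59 ± 0.38 for Cyp1a1, 3.30 ± 0.75 for Cyp1a2 and 3.30 ± 0.40 for Ahrr, all with an edgeR FDR under 0.05. Within 11D 4143 of the 17904 genes tested were higher and 4131 lower. Nqo1 was at 0.62 ± 0.20 in 10E and 0.76 ± 0.16 in 11D, and Arnt at -1.10 ± 0.16 in 10E and -0.87 ± 0.13 in 11D, again with an edgeR FDR under 0.05. Tiparp passed in 10E (0.73 ± 0.20, FDR 0.011) and not in 11D, and Aldh3a1 passed in neither (-0.57 ± 0.63, FDR 0.51, and -1.31 ± 0.62, FDR 0.098). Ahr went opposite ways, at 0.52 ± 0.22 in 10E and -0.14 ± 0.17 in 11D, and passed in neither (FDR 0.081 and 0.53). The test of the difference between lines called 0 of the 9 genes (edgeR; DESeq2 called 0, and Ahr and Cyp1a1, 2 of the 9, had an unadjusted p under 0.05) and 0% of 17904 (DESeq2 called 1, and 872 had an unadjusted p under 0.05). Its lowest unadjusted p among the 9 was 0.0092 for Cyp1a1 (log2 fold change in 10E minus that in 11D 2.15 ± 0.71, FDR 0.94), which was -0.62 without 11D EtOH replicate 2.

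In the authors' deposited table, whose header is that of DESeq2 and does not name its libraries, the log2 fold change of IAA over EtOH was 7.48 ± 1.06 for Cyp1b1 (adjusted p 4.2e-11), 5.83 ± 0.88 for Cyp1a1 (7.3e-10), 3.84 ± 0.44 for Ahrr (1.6e-16) and -0.88 ± 0.12 for Arnt (2.6e-12).

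The wider pathway did not follow the CYP1 genes as 1 block. Of 10 genes for the receptor complex and its cofactors, 1 rose and 9 fell between tagged IAA and tagged EtOH cells (edgeR; median log2 fold change -0.57, against 0.03 over all genes). Ncoa3, a steroid receptor coactivator, averaged 202 ± 3 CPM in tagged IAA and 442 ± 33 CPM in tagged EtOH (-1.12 ± 0.09, FDR 5.0e-08). Ncoa2, of the same family, fell to 74.1 CPM in tagged IAA, against 124 CPM in tagged EtOH (-0.74 ± 0.09), and the acetyltransferase gene Ep300 fell too (-0.65 ± 0.11). With library totals 6 of the 10 fell. Nrip1, a nuclear receptor corepressor gene, rose (0.48 ± 0.11, FDR 0.0021).

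Of 14 other genes reported to be induced through the receptor, 6 had enough counts to test, and 2 rose, 2 fell and 2 did not pass (3 rose and 1 fell with library totals). Ptgs2, which encodes cyclooxygenase 2, had 21.5 CPM in the 10E and 35.6 and 32.9 CPM in the 11D tagged IAA libraries, against 0 to 0.358 CPM in tagged EtOH and 1.16, 3.03 and 0.466 CPM in untagged replicates 1, 2 and 3. Its log2 fold change against tagged EtOH was 6.53 ± 0.28 (edgeR FDR 2.5e-10). Nedd9, an adhesion scaffold gene, rose to 2.72 CPM in tagged IAA, against 0.719 CPM in tagged EtOH (1.92 ± 0.44, FDR 0.0014). Ptgs2 and Nedd9 passed the filter on low counts only through the tagged IAA libraries, so a rise was favoured by their being tested at all. Stc2, a secreted glycoprotein gene, fell (-1.17 ± 0.22), and so did the cell cycle inhibitor Cdkn1b (-0.35 ± 0.13, FDR 0.029), whose call was lost in DESeq2 (FDR 0.080) and with library totals (-0.02, FDR 0.89). The median of the 6 was -0.15, and 0.18 with library totals.

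Enzymes that make or remove tryptophan-derived ligands were split. Of 13, 6 were tested, and 3 rose, 2 fell and 1 did not pass (4 rose and 1 fell with library totals). Kyat1, a kynurenine aminotransferase, averaged 32.2 ± 3.4 CPM in tagged IAA and 11.1 ± 1.6 CPM in tagged EtOH (1.48 ± 0.16, FDR 9.9e-07). Afmid, which makes kynurenine, and Ddc, an aromatic amino acid decarboxylase, rose by 1.06 and 0.93 on the log2 scale. Il4i1, an amino acid oxidase whose indole products bind the receptor, fell to 0.706 CPM in tagged IAA, against 7.07 CPM in tagged EtOH (-3.49 ± 0.39, FDR 1.9e-06), and Kyat3, a second aminotransferase gene, fell as well (-0.49 ± 0.12), though not with library totals (-0.16, FDR 0.29). Ido1 and Tdo2, the first enzymes of the kynurenine route, had too few counts to test, and Ido2 did not pass (0.10 ± 0.15).

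Nqo1 also answers to NRF2, the oxidative stress factor, so 10 genes of that pathway were set beside it. Of these, 3 rose, 3 fell and 4 did not pass (4 rose and 2 fell with library totals). Hmox1, haem oxygenase, averaged 110 ± 29 CPM in tagged IAA and 51.3 ± 1.7 CPM in tagged EtOH (1.02 ± 0.14, edgeR FDR 1.2e-05), with 47.0 to 47.2 CPM in the untagged libraries. Gclc and G6pdx, for glutathione and NADPH supply, each rose by 0.42. Nfe2l2, the gene of NRF2 itself, fell (-0.71 ± 0.10), as did its inhibitor Keap1 (-0.81 ± 0.15) and the glutathione reductase Gsr (-0.38 ± 0.09), the last not with library totals (-0.05, FDR 0.64). The median of the 10 was -0.10, and 0.23 with library totals.

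Other bHLH-PAS genes, the family of the receptor and its partners, were tested for 9 of 13. Of these, 4 rose, 3 fell and 2 did not pass (4 rose and 2 fell with library totals, 3 and 3 in DESeq2). Arnt2, a close relative of Arnt that can also serve as a partner, had 14.3 CPM in the 10E and 14.8 and 14.9 CPM in the 11D tagged IAA libraries. In tagged EtOH it had 5.76 and 5.04 CPM (10E) and 10.3 and 5.83 CPM (11D), and 4.75 to 5.39 CPM in untagged IAA. It rose by 1.16 ± 0.21 (edgeR FDR 0.00021) where Arnt fell. Arntl2, a clock partner gene that passed the filter on low counts only through the tagged IAA libraries, rose (2.68 ± 0.35). Npas3, which passed it only through these libraries too, also rose (2.30 ± 0.90, edgeR FDR 0.039). It had 0 to 1.71 CPM in tagged IAA and 0 to 0.198 CPM in tagged EtOH. A rise of Arntl2 and Npas3 was favoured by their being tested at all. The hypoxia factor genes split, with Epas1 higher (0.48 ± 0.14) and Hif1a (-0.64 ± 0.10) and Hif3a (-0.79 ± 0.16) lower. Clock fell by 0.36, and was at -0.02 (FDR 0.84) with library totals.

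Of 5 genes that serve P450 enzymes, 3 rose and none fell. Por, the reductase that supplies their electrons, averaged 125 ± 5 CPM in tagged IAA and 68.5 ± 1.5 CPM in tagged EtOH (0.85 ± 0.09, edgeR FDR 8.8e-07). Alas1, the rate-limiting enzyme of haem synthesis, and Fech, its last enzyme, rose by 0.73 and 0.47. The P450 family as a whole was divided, with 25 of 95 genes tested, 8 higher, 5 lower and 12 not passing (11 higher and 4 lower with library totals, 9 and 4 in DESeq2). Cyp1b1, Cyp1a1 and Cyp1a2 were among the 8, while Cyp7b1 (-1.33 ± 0.36) and Cyp39a1 (-1.04 ± 0.29; FDR 0.054 with library totals), of oxysterol metabolism, and Cyp51 (-0.82 ± 0.10), of cholesterol synthesis, fell. Of 15 aldehyde dehydrogenase genes tested, the family of Aldh3a1, 3 rose and 6 fell. With library totals 6 rose and 5 fell. Aldh7a1 (0.54 ± 0.09), Aldh6a1 (0.46 ± 0.11) and Aldh5a1 (0.41 ± 0.14), of amino acid and GABA breakdown, rose. Aldh1l2 (-2.36 ± 0.29) and Aldh18a1 (-1.82 ± 0.13), mitochondrial enzymes of folate and proline metabolism, and Aldh1a3 (-1.79 ± 0.39), of retinoic acid synthesis, fell. Of 13 PARP genes, the family of Tiparp, 5 rose and 2 fell (9 and 1 with library totals). Parp12 averaged 21.2 ± 1.7 CPM in tagged IAA and 3.09 ± 0.63 CPM in tagged EtOH (2.72 ± 0.20, FDR 2.3e-08), and Parp14 and Parp10, which like Tiparp transfer single ADP-ribose units, rose by 1.56 and 1.52, while Parp1, the DNA damage sensor, fell by 0.74. The counts from edgeR with TMM, which rest on 1 fit, stand beside the background of 29.3% higher and 28.1% lower over all genes. The counts with library totals stand beside 7713 higher and 2851 lower of 17904 genes. Those from DESeq2 stand beside 4547 higher and 4136 lower of 32032.

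**Figure D5:**
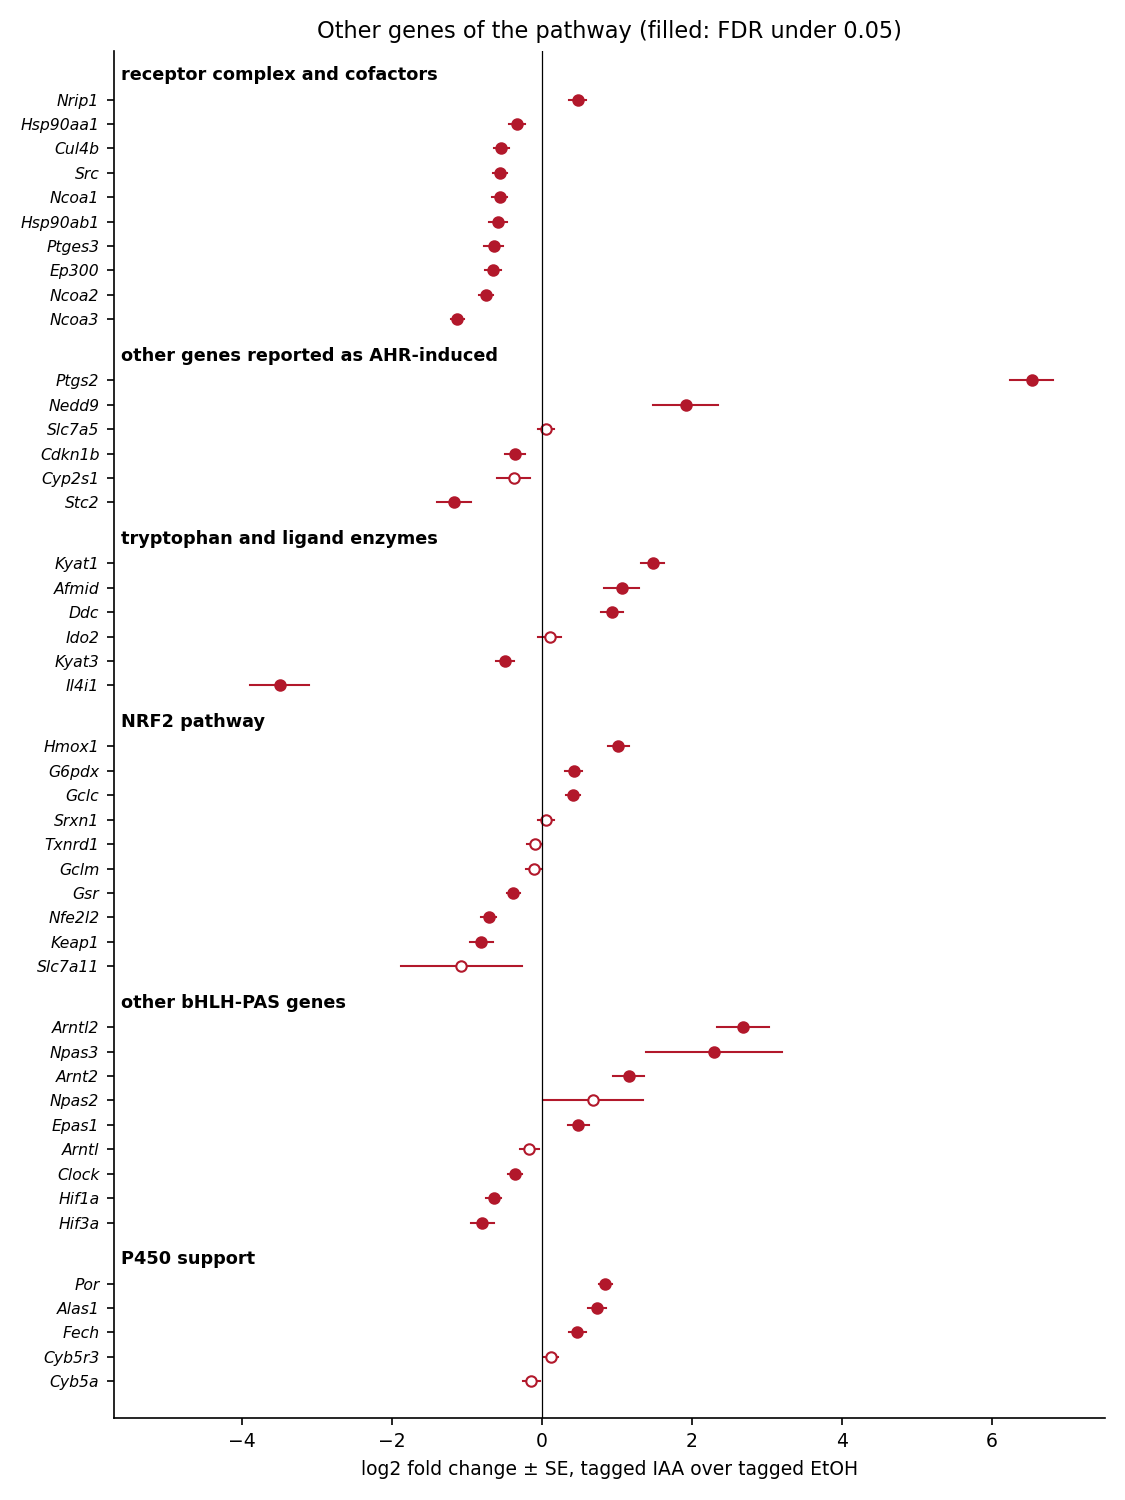
Log2 fold change with its SE, tagged IAA over tagged EtOH, of the tested genes in 6 lists around the receptor, from 1 edgeR fit over all genes; filled points have an FDR under 0.05. Ptgs2 stood at 6.53 and Il4i1 at -3.49, and 9 of the 10 complex and cofactor genes lay below 0 with an FDR under 0.05.

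The marker genes of other cell types were read beside these results. All 8 pluripotency genes fell in tagged IAA cells. Of the fibroblast markers tested, 1 of 4 fell (Pdgfrb), of the primitive endoderm markers 1 of 3 rose (Dab2, 4.67 CPM in tagged IAA and 0.612 CPM in tagged EtOH), and of the trophectoderm markers 1 of 6 rose (Krt8) and 2 fell (Eomes and Tfap2c, the second not in DESeq2, FDR 0.10, or with library totals, FDR 0.84). Dab2 passed the filter on low counts only through the tagged IAA libraries. Summed fibroblast markers stood at 15.8 to 19.7 CPM in tagged IAA, 21.6 to 34.4 CPM in tagged EtOH and 22.2 to 28.7 CPM in untagged IAA, with Postn at 0 in all. Most of that sum was Pdgfrb, which averaged 12.4 CPM in tagged IAA and 23.6 CPM in tagged EtOH. Summed primitive endoderm markers stood at 7.76 to 11.8 CPM in tagged IAA, 2.42 to 6.94 CPM in tagged EtOH and 2.98 to 5.32 CPM in untagged IAA. The higher sum in tagged IAA lay mostly in Dab2, while Gata4 averaged 3.24 CPM there and 3.43 CPM in tagged EtOH. Summed trophectoderm markers stood at 58.8 to 75.2 CPM in tagged IAA, 60.0 to 74.1 CPM in tagged EtOH and 51.4 to 60.2 CPM in untagged IAA. Of 8 hepatocyte markers, 5 were at 0 in all tagged IAA libraries, 6 in tagged EtOH and 5 in untagged IAA, with a sum of 1.29 to 2.85 CPM in tagged IAA, 0.889 to 1.17 CPM in tagged EtOH and 1.77 to 2.31 CPM in untagged IAA. Fgb, Serpina1a, Cyp3a11 and G6pc were at 0 in every library. The summed level of 1803 chemosensory receptor genes, which stem cells hardly use, was 96.1 to 110 CPM in tagged IAA, 53.9 to 81.5 CPM in tagged EtOH and 74.5 to 118 CPM in untagged IAA, and mitochondrial genes took 2.45 to 3.16%, 1.67 to 2.26% and 2.28 to 2.73% of counts in these groups. The part of these shifts in the results for the 9 genes was not tested.

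Neighbouring genes were compared with the members. Rmdn2, which encodes a microtubule-associated protein and lies 8.35 kb beyond the 3′ end of Cyp1b1 on the other strand, had 11.2, 15.4 and 14.7 CPM in the tagged IAA libraries and 5.29 to 9.23 CPM in tagged EtOH (0.90 ± 0.20, edgeR FDR 0.0013). Exoc3, an exocyst subunit gene 2.39 kb beyond the 3′ end of Ahrr on the same strand, had 68.9, 78.4 and 82.9 CPM in tagged IAA and 47.6 to 52.8 CPM in tagged EtOH (0.58 ± 0.10, FDR 0.00018). In untagged replicates 1, 2 and 3 Rmdn2 stood at 11.8, 8.26 and 6.80 CPM and Exoc3 at 72.9, 62.5 and 51.8 CPM. The summed chemosensory receptor genes fell over these replicates too. On the other side, Atl2 beyond Cyp1b1 (-0.33 ± 0.11, FDR 0.016) was lower in tagged IAA with TMM but at 0.01 (FDR 0.97) with library totals, and Pdcd6 beyond Ahrr (-0.06 ± 0.11, FDR 0.65) did not pass with TMM and was at 0.27 (FDR 0.048) with library totals. Next to Cyp1a1, Edc3 was at -0.34 ± 0.10 (FDR 0.011) with TMM and at -0.01 (FDR 0.96) with library totals, and Csk, next to Cyp1a2, did not pass (-0.06 ± 0.12; 0.27 with library totals). Beside Tiparp, Lekr1 rose (1.77 ± 0.21), and beside Nqo1, Nob1 fell (-0.66 ± 0.11). Ssr3, beside Tiparp (-0.37 ± 0.09), and Nfat5, beside Nqo1 (-0.37 ± 0.10), fell with TMM and were at -0.03 (FDR 0.77) and -0.04 (FDR 0.74) with library totals.

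The genes whose pattern was most like that of 2 members were ranked by Pearson's r of log2(CPM + 1) over the 10 libraries, among 11777 genes. This is a description over libraries that share their grouping. Nearest to Cyp1b1 were Spata1 (r = 0.98), Csgalnact2 (0.98), Lrr1 (0.97), Rffl (0.97) and Usp16 (0.97). Their folds were far smaller, as with Lrr1 at 42.6 to 52.4 CPM in tagged IAA, 15.3 to 18.6 CPM in tagged EtOH and 18.8 to 26.2 CPM in untagged IAA. Nearest to Nqo1 were Exoc3 (r = 0.95), Lysmd2 (0.95), Ndfip2 (0.95), Golga1 (0.95) and Rmdn2 (0.94), so that the neighbours of Ahrr and of Cyp1b1 both stood among the 5. For Cyp1a1, added once its values had been seen, the gene most like it of all was Ahrr (r = 0.98).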

How the data were processed

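The authors deposited whole-number read counts per gene symbol, not normalized, as a single table. According to the submitters' processing notes STAR and deepTools were used with mm10; no version, read counter, annotation or strand setting was found in the labels. A second deposited table gives the authors' base means (a signal averaged over scaled libraries), log2 fold changes, their errors, Wald statistics (a score) and p-values, per the file headers, and was used only for description.

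There are 10 columns, although 11 samples carry labels and the series' design counts 12, and 7 tagged libraries were analysed where the planned design counted 8. The codes 10E and 11D could not be tied to a clone number. TIR1 was read as the untagged line because replicate 3 under IAA occurs only there. Separate cultures are not stated for the replicates, so the p-values reflect a spread that may be technical. No pair of replicates looked like 1 library deposited again (chi-square per degree of freedom of 2.84 to 25.5).

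Counts were tested in R 4.3.3 with edgeR 4.0.16 (its quasi-likelihood test after TMM scaling and filterByExpr), and FDR, after Benjamini and Hochberg, ran over all genes tested. Tagged IAA was set against tagged EtOH in the 7 tagged libraries with line as a term. The contrasts with untagged cells were drawn from 1 model of 10 libraries that weighted the tagged lines equally. The test between lines and the effects within a line came from the 7 tagged libraries, with 1 coefficient per line and treatment. The SE was taken from the F statistic. Alternatives were DESeq2 1.42.0, library totals, no filter, the replicate number as a term, and each library left out. The main edgeR fits of the contrasts were tested on simulated data. Exact 95% intervals and the limit of 3 counts cover counting error only. Positions and exon lengths are from GENCODE M21 (GRCm38), which holds 53292 of the 55291 symbols. The 9 genes lie on chromosomes 3 (Arnt, Tiparp), 8 (Nqo1), 9 (Cyp1a1, Cyp1a2), 11 (Aldh3a1), 12 (Ahr), 13 (Ahrr) and 17 (Cyp1b1).

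Members and lists were chosen with earlier results of these data known. From the list of the receptor complex and its cofactors 1 gene is not reported here and is left out of the counts. From each list up to 3 genes per direction were named, those with the lowest FDR (in the 3 gene families, those with the largest change at a mean of at least 1 CPM), besides genes given only as values. Neighbours of Cyp1a1, Cyp1a2 and Ahrr, the ratios, the 4-fold rule for single libraries and the list counts under other scalings were added after the values had been seen. Exons overlap with another gene, which makes the counts uncertain, in Ahr, Tiparp, Afmid, Alas1, Aldh1l2, Aldh5a1, Aldh6a1, Aldh7a1, Arnt2, Cyp51, Dab2, Eomes, Ep300, G6pdx, Hif1a, Il4i1, Keap1, Krt8, Kyat3, Ncoa3, Ndfip2, Nedd9, Npas3, Parp1, Parp10, Parp14, Pou5f1, Rffl, Spata1 and Usp16.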

Additional observations from a re-analysis of the deposited data

Results flagged for a closer look

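Among the 4 tagged EtOH libraries, 59 genes (the members and the named list genes) were checked for a library far from the other 3, and chance marks about 1 in 20. Cyp1a1 stood at 8.96 CPM in 11D EtOH replicate 2 and at 0.593 to 1.70 CPM in the other 3 libraries. Ncoa3 stood at 491 CPM in 10E EtOH replicate 2. Arnt2 stood at 10.3 CPM in 11D EtOH replicate 1.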

How the results depend on the processing

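The 9 genes gave 6 higher and 1 lower in tagged IAA against tagged EtOH, and 7 higher with library totals. Over all 17904 genes 5247 were higher with TMM and 7713 with library totals. Against untagged IAA, DESeq2 called 2 higher and 1 lower, library totals 6 higher and 1 lower, and leaving out single libraries gave 2 to 5 higher and 1 to 2 lower, against 4 and 2. Over all genes that comparison gave 3904 higher and 3867 lower of 32892 in DESeq2, and 6899 and 3006 of 17439 with library totals. With single libraries left out it gave 3913 to 4939 higher and 4233 to 4983 lower over all genes, against 4865 and 4843. For tagged EtOH against untagged IAA, leaving out single libraries gave 1 to 5 lower, against 4. The calls over all genes then ranged from 83 to 1003, against 622, and were 1366 with no filter on low counts. In the test between lines, leaving the low counts in called 1 member higher (Cyp1a1, 2.08), and over all 32032 genes 12 higher and 15 lower. The fit of that test without 10E IAA replicate 1 could not be made. With the replicate block the counts were 6 and 1, 4 and 2, and 0 and 4, as without it. Over all genes they were 5047 and 4872, 3872 and 4139, and 142 and 274. Same-numbered libraries deviated together (correlation 0.26) between 11D EtOH and 11D IAA, but not between groups of different lines (-0.22 to 0.079). Only line 11D had 2 libraries in both arms. Its replicate 1 was the shallower in EtOH and in IAA (3554390 and 3100127 counts, against 11848952 and 13510163). Pairing thus cannot be told apart from depth there, and the numbers were not taken to pair the samples. No fold change of the 9 that was called turned its sign under any alternative. With the longer motif, 1 member held it. Except where a value is given, the cause of these shifts was not tested. Depth limits Cyp1a1, Cyp1a2, Cyp1b1, Ahrr and Aldh3a1 in the libraries where they had 5 counts or fewer.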

Other observations

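Ly6a, which encodes a surface antigen, was among the 5 genes at least 4-fold lower in untagged replicate 3 than in both other untagged libraries, at 5.03 CPM against 23.4 CPM in the nearer of them. It is no member and was named after its values had been seen.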
